A study of Mus musculus with 29 samples.

Results

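The genes described here encode the enzymes that bring pyruvate into the mitochondrion and oxidise it there, together with the enzymes that refill the cycle: the mitochondrial pyruvate carrier, the pyruvate dehydrogenase (PDH) complex, the tricarboxylic acid (TCA) cycle and the anaplerotic enzymes. The set was a fixed list of 32 gene symbols, matched through the annotation to rows of the deposited table. All 32 were found among its 48023 genes. The list follows the enzyme steps and uses no measured value in its rule, but it was drawn up with earlier results of these data known. All 32 also passed the filter on low counts in each fit, so every count of members given here is out of 32. They comprise 2 subunits of the pyruvate carrier, 5 of the PDH complex, 2 genes of citrate formation and isomerisation, 5 isocitrate dehydrogenase genes, 3 of the oxoglutarate dehydrogenase step, 3 of succinyl-CoA ligase, 4 of succinate dehydrogenase, 3 of the fumarase and malate dehydrogenase steps and 5 of anaplerosis.

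The pyruvate carrier imports the end product of glycolysis, and the PDH complex converts it irreversibly to acetyl-CoA, under the control of inhibitory kinases and activating phosphatases. The cycle then oxidises acetyl groups from carbohydrate, fat or amino acids and passes electrons to the respiratory chain, with succinate dehydrogenase belonging to both. In muscle, fasting moves fuel use from glucose to fatty acids, with PDH shut down by phosphorylation, and anaplerotic reactions replace cycle intermediates that leave for other pathways.

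RNA was sequenced from the tibialis anterior (TA) muscle of 29 male mice, labelled C57BL/6J and 2 to 3 months old (3 months in the study's own text), of 2 lines. One line carried loxP sites around exon 1 of p110α (Pik3ca) and the other around exon 2 of p110β (Pik3cb), the major catalytic subunits of class IA phosphatidylinositol 3-kinase. In M-p110αKO and M-p110βKO mice the floxed gene was deleted by Cre recombinase under the human alpha-skeletal actin promoter, which is active in muscle fibres and not in the other cells of the tissue. Controls, labelled WT within each line, were that line's floxed mice, and mice were either fed or fasted for 24 h. The p110α line had 4 fed controls (mice 1 to 4), 4 fed M-p110αKO (mice 5 to 8), 4 fasted controls (mice 9 to 12) and 3 fasted M-p110αKO (mice 13 to 15). The p110β line had 3 fed controls (mice 16 to 18), 4 fed M-p110βKO (mice 19 to 22), 3 fasted controls (mice 23 to 25) and 4 fasted M-p110βKO (mice 26 to 29). The p110β line was less purely C57BL/6 by the study's supplement, so that background and floxed gene cannot be told apart in any comparison of the lines. Values in a group are given in the order of these mouse numbers.

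Libraries held 5351935 to 11653239 assigned reads, and mitochondrially encoded genes took 6.99% to 12.3% of them. Counts cover all exons and therefore do not test the loss of 1 exon: Pik3ca had 126.7 ± 19.7 CPM (read counts scaled to library size; SD, n = 4) in fed controls and 136.2 ± 23.4 (n = 4) in fed M-p110αKO. Pik3cb had 10.34 ± 0.364 CPM (n = 3) in fed controls and 10.25 ± 0.996 (n = 4) in fed M-p110βKO. The summed level of 6 skeletal muscle markers was 88630 to 133100 CPM in every library. Adipocyte genes were high in 2 fasted p110β controls, mice 23 and 24, whose summed level over 7 adipocyte markers was 387.1 and 423.8 CPM against 171.6 CPM in mouse 25 and 89.98 to 206.8 CPM in the libraries of the other groups. Called changes of the members that rest on these libraries are given with and without them. In whole muscle, fewer cells of a type and less RNA per cell cannot be told apart.

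Transcript levels of the cycle spanned nearly 3 orders of magnitude. Per kb of summed exon length, the order over the 14 control libraries of both lines was led by Sdha, the flavoprotein subunit of succinate dehydrogenase, at 307 ± 19.2 CPM per kb (SD), Mdh1, cytosolic malate dehydrogenase, at 298 ± 27.9, and Sdhd, a membrane anchor of succinate dehydrogenase, at 294 ± 56.3. These 3 neighbours did not differ beyond their spread. The next were Sucla2 (215 ± 12.9), Idh3a (195 ± 29.4), Ogdh (188 ± 36.1), Sdhb (178 ± 40.8), Cs (176 ± 23.1) and Mdh2 (168 ± 18.2). At the other end stood the mitochondrial phosphoenolpyruvate carboxykinase Pck2 (0.81 ± 0.291), the oxoglutarate dehydrogenase paralog Ogdhl (0.722 ± 0.18) and the mitochondrial NAD-dependent malic enzyme Me2 (0.36 ± 0.0985). Within a single enzyme the subunits were far from equal by this measure: Pdha1, Dld and Pdhb stood at 149 ± 29.4, 142 ± 35.7 and 128 ± 16.1 CPM per kb, and Dlat and Pdhx, the core and its binding protein, at 38 ± 6.42 and 30.5 ± 4.3. Length was summed over all annotated exons of a gene, for example 7344 bases for Mpc2 and 2082 for Mpc1. The order of genes and the size of ratios between genes therefore depend on the annotation. The coefficient of variation over the 14 controls was lowest for Sucla2 (6.03%) and Sdha (6.25%) and highest for Idh2 (37.8%) and Pck2 (35.9%).

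**Figure D1:**
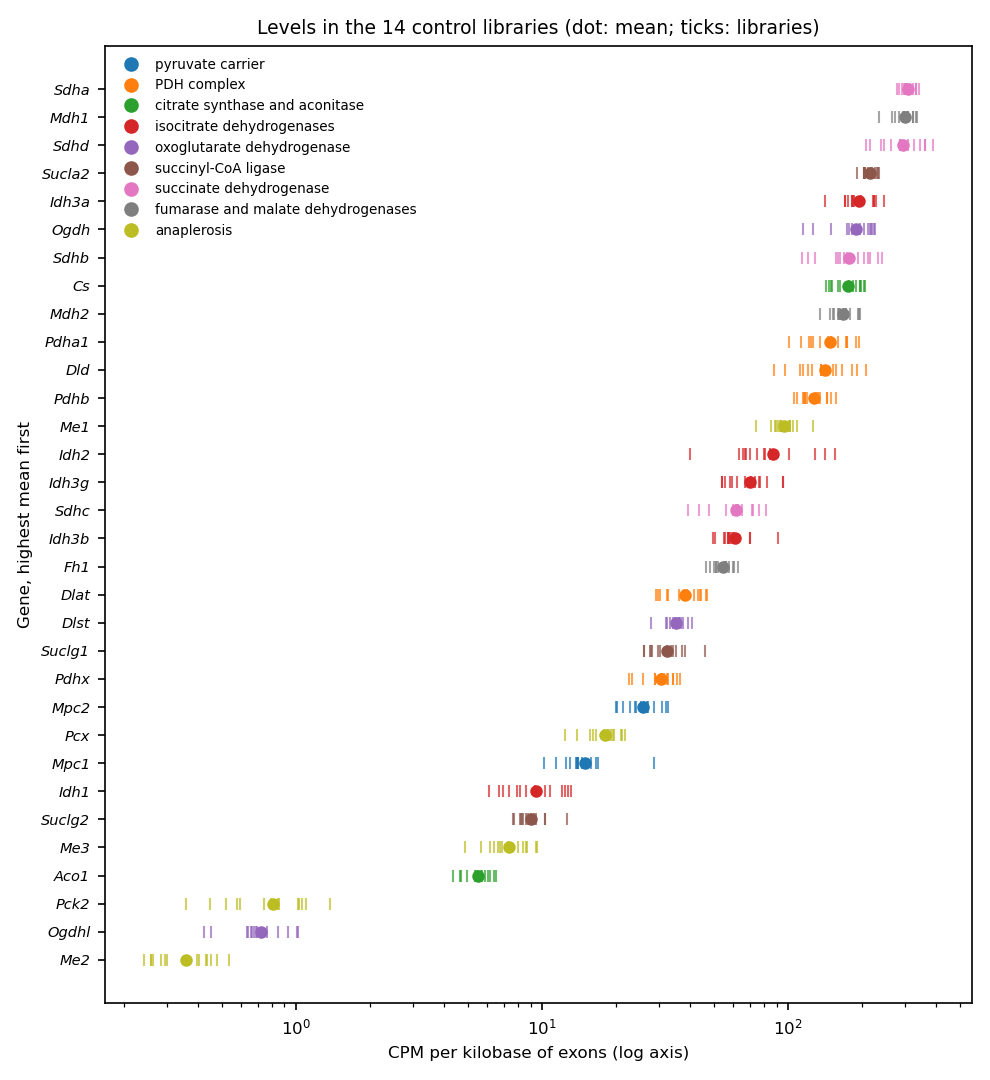
Level of each of the 32 genes in the 14 control libraries of both lines, in CPM per kb of summed exon length on a log axis, coloured by enzyme step. Sdha, Mdh1 and Sdhd lie highest and Pck2, Ogdhl and Me2 lowest, and the points of Idh2 are spread most widely among the abundant genes.

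Each line was tested on its own with edgeR, for the genotype in fed and in fasted mice, for fasting in controls and in knockouts, and for the difference between the fasting responses. Folds are on the log2 scale and a gene was called at an adjusted p under 0.05 over all genes tested. Comparisons within a line share groups of libraries and are therefore not independent. Few of these genes were called between knockouts and controls. In fed M-p110αKO, 0 of the 32 genes were called against 0.611% of all genes tested, and in fasted M-p110αKO 1 gene rose and 0 fell (6.52% of all genes called in either direction). In fed M-p110βKO, 0 of 32 were called (0% of all genes), and in fasted M-p110βKO likewise 0 of 32 (0.89% of all genes). DESeq2 and limma-voom also called 0 members in fed M-p110αKO and in fed and fasted M-p110βKO. At an unadjusted p under 0.05, edgeR had 1 higher and 2 lower in fed M-p110αKO, 0 in fed M-p110βKO, and 1 higher and 1 lower in fasted M-p110βKO. All shares of genes called are for adjusted p, so counts at an unadjusted p, here and below, cannot be set against them. The median log2 fold change over the 32 genes was 0.15 in fed and 0.11 in fasted M-p110αKO, with 25 and 23 of 32 above 0, and -0.023 and 0.055 in fed and fasted M-p110βKO, with 13 and 19 above 0. Over all genes tested the medians lay between -0.024 and 0.0082 in the 8 genotype and fasting comparisons.

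With fasting, 4 of the 32 genes were called in each of the 4 comparisons. In p110α-line controls 0 rose and 4 fell (30.1% of all genes called), and in M-p110αKO 1 rose and 3 fell (21.5% of all genes). In p110β-line controls 2 rose and 2 fell (26.9% of all genes), and in M-p110βKO 3 rose and 1 fell (37.9% of all genes). The shares of called members were thus below that of all genes in each of the 4 fasting comparisons. Counts from other gene lists below are to be read against the same shares of all genes. The median log2 change with fasting over the 32 genes was -0.12 and -0.17 in p110α-line controls and knockouts, and -0.056 and -0.018 in the p110β line. Group means of the members' summed level ran from 10970 CPM in fed M-p110βKO to 13500 CPM in fed M-p110αKO, and single libraries from 10510 to 14790 CPM. In p110α-line controls the means were 12200 CPM fed and 11580 CPM fasted, and in fasted M-p110αKO 12750 CPM. In p110β-line controls they were 11140 CPM fed and 11000 CPM fasted, and in fasted M-p110βKO 11360 CPM. These sums were not tested.

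**Figure D2:**
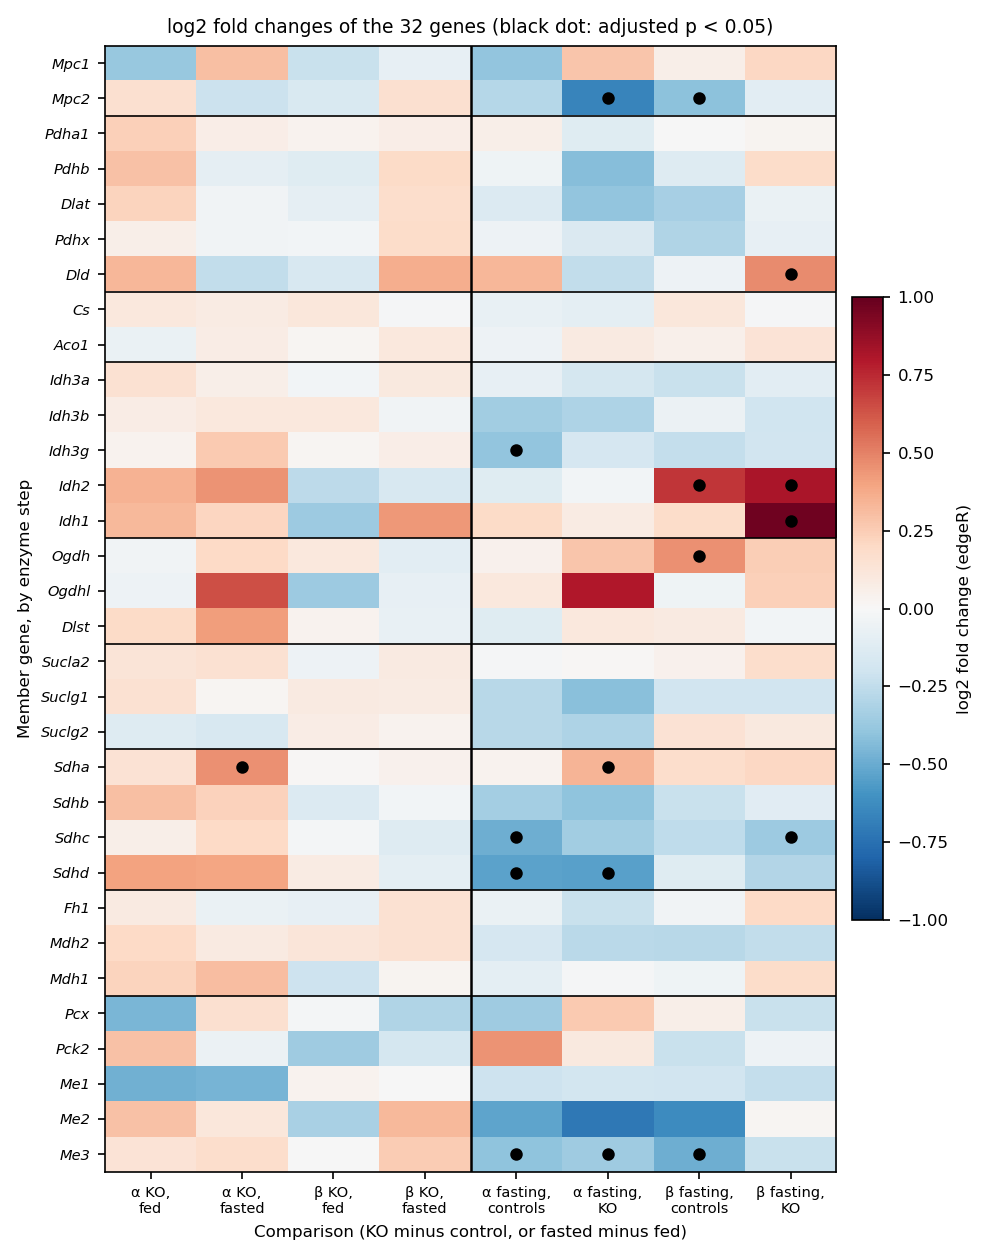
Log2 fold change of the 32 genes (rows, ordered by enzyme step) in the 4 genotype and 4 fasting comparisons (columns), in colour, with a black dot where the adjusted p was under 0.05. Dots are few and lie mostly in the fasting columns: falls in the succinate dehydrogenase anchors, Mpc2 and Me3, and rises in Idh2, Idh1, Ogdh and Dld of the p110β line.

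The mitochondrial pyruvate carrier is a heterodimer of Mpc1 and Mpc2, and its Mpc2 transcript was lower after fasting. Mpc2 (ENSMUSG00000026568, chr1:165460637-165481214, plus strand, GRCm38) measured 222, 261, 227 and 234 CPM in fed M-p110αKO and 136, 147 and 164 CPM in fasted M-p110αKO. All 3 fasted knockout libraries lay below all 4 fed ones, and the log2 change was -0.66 ± 0.12 (SE, edgeR adjusted p = 0.000759). In p110α-line controls Mpc2 was 185, 198, 225 and 238 CPM fed and 176, 148, 196 and 177 CPM fasted. These groups overlapped, with the highest fasted library above the lowest fed one, and the log2 difference of -0.29 fell short of the threshold (adjusted p = 0.0513). In p110β-line controls Mpc2 was 191, 236 and 209 CPM fed and 149, 168 and 156 CPM fasted. The fed and fasted libraries did not overlap there and Mpc2 fell by 0.41 on the log2 scale (SE 0.11, adjusted p = 0.00952), but without mouse 17 the adjusted p was 0.0546 and without both mice 23 and 24 it was 0.0993. In M-p110βKO the values were 190.1, 172, 218 and 178 CPM fed and 180.2, 178, 172 and 174 CPM fasted, with a log2 difference of -0.11 (adjusted p = 0.395). The 4 fasted M-p110βKO libraries were close to each other and above all 3 fasted controls of that line.

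Mpc1, the partner subunit, was called in no comparison. Its group means ran from 25.7 ± 4.23 CPM (SD, n = 4) in fed M-p110βKO to 35.4 ± 16.4 CPM (n = 4) in fed p110α-line controls, where mouse 4 alone stood at 59.7 CPM. Of the exon bases of Mpc1, 23.1% lie opposite exons of an antisense gene, 4930506C21Rik, and whether counting used the strand is not stated. The ratio of Mpc1 to Mpc2 per kb was 0.411 ± 0.0308 (SD, n = 4) in fed and 0.794 ± 0.0843 (n = 3) in fasted M-p110αKO, and 0.505 ± 0.0245 (n = 3) in fed and 0.699 ± 0.0225 (n = 3) in fasted p110β-line controls. These ratios are descriptive and were not tested.

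The PDH complex is built from the E1 subunits Pdha1 and Pdhb, the E2 core Dlat, its binding protein Pdhx and the E3 dihydrolipoamide dehydrogenase Dld, which the oxoglutarate dehydrogenase complex shares. Of these 5, only Dld was called, and only in fasted against fed M-p110βKO. Dld (ENSMUSG00000020664, chr12:31331277-31351453, minus strand) measured 363, 442, 400.4 and 362 CPM in fed and 489, 555, 582 and 552 CPM in fasted M-p110βKO. Every fasted knockout library exceeded every fed one, with a log2 change of 0.47 ± 0.14 (SE, edgeR adjusted p = 0.0146). In p110β-line controls Dld was 422, 578 and 322 CPM fed and 444, 359 and 460.2 CPM fasted, groups that overlapped widely, with a log2 difference of -0.05 (adjusted p = 0.844). In the p110α line the sign was the opposite in the 2 genotypes: 0.33 in controls (adjusted p = 0.132) and -0.24 in M-p110αKO (adjusted p = 0.347). The difference between these fasting responses, -0.58 in the p110α line and 0.53 in the p110β line, did not pass the test in either (adjusted p = 0.262 and 0.33).

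The other PDH subunits were called in no comparison. Pdha1, the most abundant of the complex, measured 542, 642, 649 and 648 CPM in fed p110α-line controls and 624, 664, 722 and 929 CPM in fed M-p110αKO, overlapping groups with a log2 difference of 0.24 (adjusted p = 0.487). In the p110β line its group means lay between 447 ± 21.3 and 469 ± 54.7 CPM (n = 3 and 4). Pdha1 exons overlap antisense exons of Map3k15 over 16.1% of their bases. In fasted against fed M-p110αKO, Pdhb differed by -0.43 and Dlat by -0.40 on the log2 scale (adjusted p = 0.0693 and 0.0617), short of the threshold. In fasted against fed p110β-line controls, Dlat differed by -0.33 and Pdhx by -0.30, with groups that did not overlap and adjusted p of 0.0828 and 0.0751.

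In contrast to the subunits, the transcripts of the enzymes that switch the complex off and on changed with fasting in several cases. The list held the 4 PDH kinases, which inactivate the complex, and the phosphatases Pdp1 and Pdp2 with the phosphatase regulator Pdpr, which reactivate it. Of these, 7 were tested in the p110α line and 6 in the p110β line. Pdk4, the fasting-induced kinase of muscle, averaged 1896 CPM in fed p110α-line controls and 6525 CPM in fasted ones, and 740.7 and 5645 CPM in the p110β line. On the log2 scale it rose in all 4 fasting comparisons, by 1.78 ± 0.26 (SE, edgeR adjusted p = 7.57e-5) in p110α-line controls, 1.14 in M-p110αKO, 2.94 in p110β-line controls and 3.61 in M-p110βKO (adjusted p of the last 3 = 0.00629, 1.46e-7 and 2.19e-9). Pdp1, the main phosphatase of muscle, fell in the same 4 comparisons, by log2 changes of -1.04, -0.92, -1.54 and -0.83 (adjusted p = 1.07e-5, 0.000197, 4.94e-6 and 0.00027). Pdp2 rose in the p110β line, by 1.85 (adjusted p = 0.000433) in controls and 1.85 (adjusted p = 0.000101) in knockouts, and differed by 0.92 (adjusted p = 0.0511) and 1.00 (adjusted p = 0.0681) in those of the p110α line. Pdpr rose in fasted M-p110βKO by 1.06 (adjusted p = 0.000782). Pdk2 fell in fasted p110α-line controls, with a log2 change of -0.26 (adjusted p = 0.0357), and was higher in fasted M-p110αKO than in their fasted controls by 0.36 (adjusted p = 0.0318). The genotype difference of Pdk2 in fasted mice was larger in the p110α than in the p110β line by 0.57 (adjusted p = 0.0253). In fasted p110β-line controls Pdk2 was 591 and 535.5 CPM in mice 23 and 24 and 468.4 CPM in mouse 25. Fasted M-p110βKO had 387.6 to 536.6 CPM. This difference between the lines is not given without mice 23 and 24. EdgeR called 0 of 7 in fed M-p110αKO and 0 of 6 in M-p110βKO against controls in either state, with 1 gene in each of these 3 comparisons at an unadjusted p under 0.05 (Pdpr lower in fed M-p110αKO, Pdk4 lower in fed and Pdp1 higher in fasted M-p110βKO).

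Citrate synthase, Cs, condenses acetyl-CoA with oxaloacetate, and its transcript did not pass the test in any comparison. Cs measured 1089, 1178, 1192 and 1130 CPM in fed and 1067, 1021, 1147 and 1137 CPM in fasted p110α-line controls, and 1115, 1161, 1269 and 1403 and 1125, 1144 and 1186 CPM in fed and fasted M-p110αKO. These 4 groups overlapped, and the 95% interval of the log2 difference was -0.08 to 0.30 for the knockout in fed mice and -0.27 to 0.12 for fasting in controls. Aco1, the cytosolic aconitase and iron regulatory protein, was low, with group means of 22.1 ± 1.92 CPM (SD, n = 3) to 27.4 ± 3.46 CPM (n = 3) and adjusted p of at least 0.379 in the 8 comparisons.

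The isocitrate dehydrogenases fall into the NAD-dependent cycle enzyme, made of Idh3a, Idh3b and Idh3g, and the NADP-dependent enzymes, mitochondrial Idh2 and cytosolic Idh1. Idh2 rose with fasting in both genotypes of the p110β line and Idh1 in M-p110βKO, whereas a regulatory subunit of the NAD-dependent enzyme fell with fasting in p110α-line controls. Idh2 (ENSMUSG00000030541, chr7:80094846-80115392, minus strand) measured 261, 209 and 207 CPM in fed and 402, 366 and 334 CPM in fasted p110β-line controls. All fasted controls were above all fed ones, with a log2 change of 0.71 ± 0.18 (SE, edgeR adjusted p = 0.00743). In M-p110βKO it was 197, 163, 196 and 194 CPM fed and 348, 206, 413 and 349.9 CPM fasted. Mouse 27 was lower than the other fasted knockouts but still above the fed ones, and the log2 change was 0.81 ± 0.16 (SE, edgeR adjusted p = 0.000605). Without both fasted controls 23 and 24, the change in p110β-line controls was 0.58 with an adjusted p of 0.136, with a single library left in that group.

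In the p110α line Idh2 was called in neither genotype. It measured 181, 174, 169 and 194 CPM in fed and 163, 176, 103 and 219 CPM in fasted controls, and 219.9, 258, 256 and 182 and 278, 277 and 119.8 CPM in fed and fasted M-p110αKO. Fasted libraries of both genotypes were widely scattered and overlapped the fed ones, with log2 differences of -0.125 (adjusted p = 0.712) and -0.02 (adjusted p = 0.957). The fasting response of controls differed between the lines by -0.82 ± 0.32 (p110α minus p110β, SE), with an adjusted p of 0.171. The ratio of Idh2 to Idh3a per kb was highest in the fasted p110β line: it was 0.465 ± 0.116 in fed and 0.876 ± 0.0418 in fasted controls (SD, n = 3 each), and 0.748 ± 0.226 in fasted M-p110βKO (n = 4).

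The summed level of 8 markers of slow or oxidative fibres was higher on average in fasted than in fed mice of the p110β line, where Idh2 rose. Myh2, a myosin of fast oxidative fibres, was the largest part of this sum in every library. The sum was 248.1 to 308.9 CPM in fed and 739.5 to 920.8 CPM in fasted p110β-line controls, and 168.9 to 401.4 CPM in fed and 366.8 to 575.7 CPM in fasted M-p110βKO. In the p110α line, where Idh2 was not called, it was 535.5 to 1081 CPM in fed and 833.9 to 1232 CPM in fasted controls. In M-p110αKO it was 691.4 to 1350 CPM fed and 536.8 to 1085 CPM fasted. In fasted against fed p110β-line controls 4 of the 7 markers tested rose and 0 fell, and in M-p110βKO 1 of 7 rose and 0 fell. In p110α-line controls 0 of 8 rose and 3 fell, and in M-p110αKO 1 of 8 rose and 0 fell. The part of these fibre genes in the Idh2 and Ogdh results was not tested.

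Idh1 (ENSMUSG00000025950, chr1:65158616-65186500, minus strand) was low in the p110β line, at 15.2, 14.4, 20.4 and 13.3 CPM in fed and 38.5, 20.9, 28.2 and 37.9 CPM in fasted M-p110βKO. Every fasted knockout exceeded every fed one, with the largest log2 change among the called members, 0.97 ± 0.215 (SE, edgeR adjusted p = 0.00168). In p110β-line controls Idh1 was 20.4, 22.6 and 18.6 CPM fed and 19.2, 16.9 and 33.5 CPM fasted, overlapping groups with a log2 difference of 0.18 (adjusted p = 0.617). The interaction of 0.79 had an adjusted p of 0.329, so the fasting responses of the genotypes were not shown to differ. In the p110α line Idh1 group means lay between 27.4 ± 6 and 36.4 ± 2.49 CPM (n = 4 and 3). Idh1 is also expressed in adipocytes. The 7 adipocyte markers summed to 114.7 to 155.8 CPM in fed and 127.4 to 192.1 CPM in fasted M-p110βKO. Fabp4 made up most of these sums, at 113.8 to 147 CPM fed and 127.3 to 189.2 CPM fasted. Of 4 adipocyte markers tested in this comparison 0 rose and 0 fell, with a median log2 difference of -2.53. The part of adipocytes in the Idh1 result was not tested. Markers of other cell types moved in the same comparison, to which the called rises of Dld and Idh2 and the fall of Sdhc in M-p110βKO also belong. With fasting in M-p110βKO 5 of 5 fibroblast markers fell, with a median log2 change of -1.86 and summed levels of 306.3 to 450.9 CPM in fed and 132.7 to 197.9 CPM in fasted mice. Of the macrophage markers 3 of 3 tested fell (8.69 to 16.15 CPM fed, 3.972 to 6.337 CPM fasted) and of the endothelial markers 2 of 4 (412.6 to 460.7 CPM fed, 238.5 to 363.8 CPM fasted). The part of these cells in the results was not tested.

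Idh3g (ENSMUSG00000002010, chrX:73778963-73786897, minus strand), a regulatory subunit of the NAD-dependent enzyme, measured 159.7, 198, 168 and 259 CPM in fed and 158, 145, 149.7 and 146 CPM in fasted p110α-line controls. The lowest fed library was just above the highest fasted one, and Idh3g fell by 0.40 on the log2 scale (SE 0.13, adjusted p = 0.031). The call was lost on leaving out any one of mice 2, 4, 9, 10, 11 or 12, with an adjusted p of up to 0.142 and a change of -0.23 without mouse 4, the highest fed library. In the other fasting comparisons the log2 difference was -0.17, -0.24 and -0.19, below 0 each time with adjusted p of 0.158 or more. Idh3b, the other regulatory subunit, differed by -0.34 in fasted p110α-line controls (adjusted p = 0.0668). Idh3a, the catalytic subunit and the most abundant of the 5 genes, had group means of 823 ± 95.4 CPM (n = 3) in fasted p110β-line controls to 1210 ± 149 CPM (n = 4) in fed M-p110αKO and was called in no comparison.

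**Figure D3:**
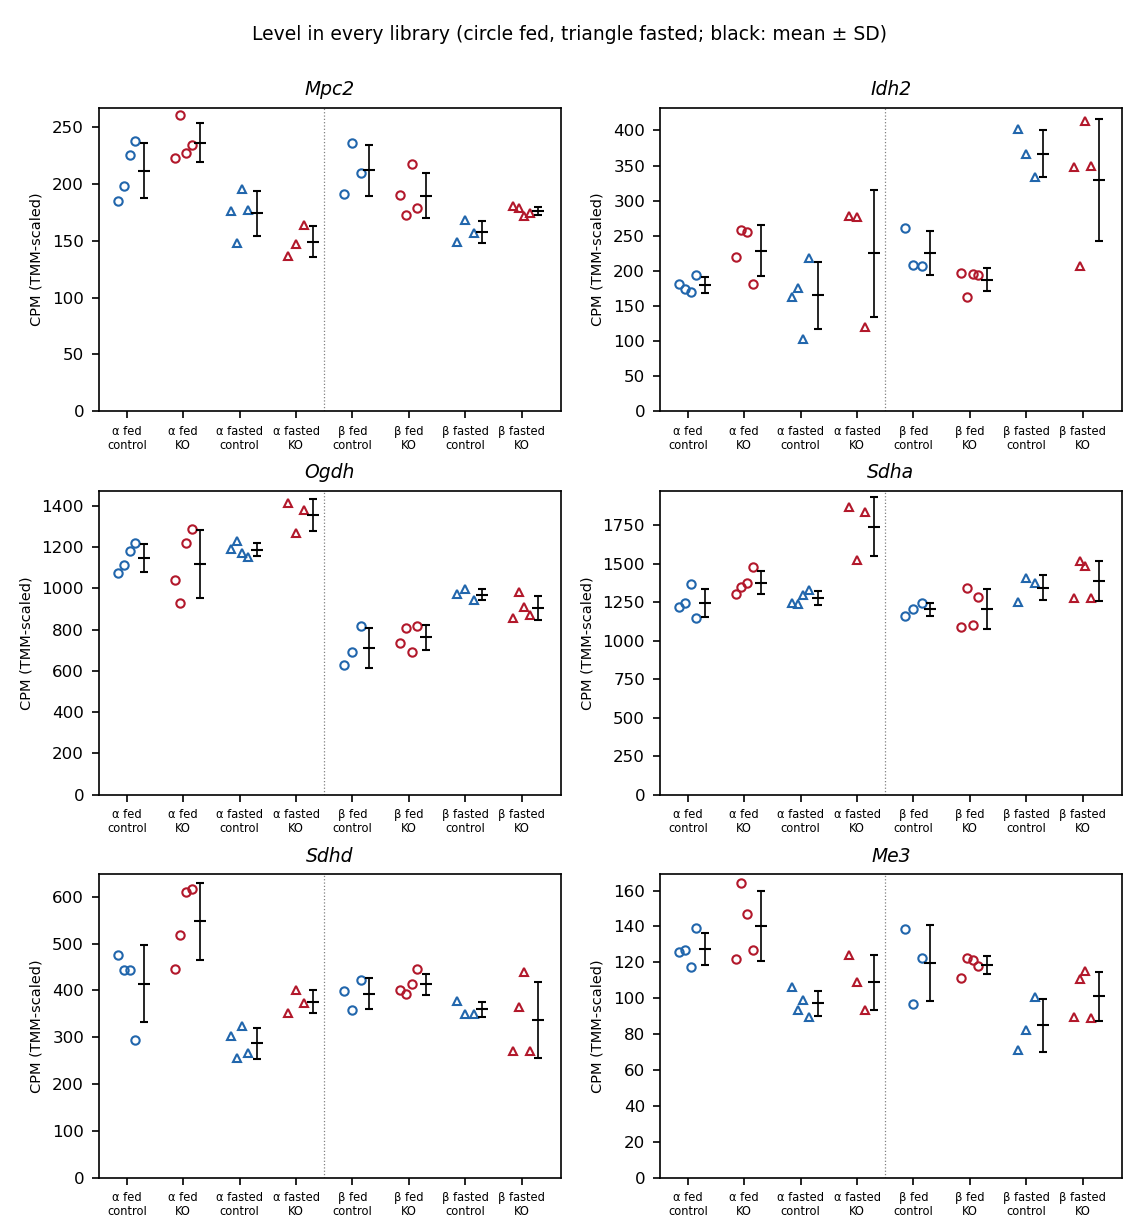
Level in CPM of Mpc2, Idh2, Ogdh, Sdha, Sdhd and Me3 in each of the 29 libraries, by group: blue for controls and red for knockouts, circles for fed and triangles for fasted mice, with the mean ± SD in black. Sdha is highest in mice 13 and 15 of fasted M-p110αKO, while mouse 14 (1526 CPM) is close to fasted M-p110βKO mouse 27 (1520 CPM). Idh2 is high in both fasted groups of the p110β line apart from mouse 27, and Ogdh is lower throughout the fed p110β line.

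The oxoglutarate dehydrogenase complex consists of the E1 enzyme Ogdh, the E2 enzyme Dlst and the shared E3 Dld. Ogdh (ENSMUSG00000020456, chr11:6291633-6356642, plus strand) measured 626, 692 and 817 CPM in fed and 970.4, 996 and 944 CPM in fasted p110β-line controls. All fasted controls exceeded all fed ones, with a log2 change of 0.46 ± 0.12 (SE, edgeR adjusted p = 0.00768). The adjusted p was 0.0512 without mouse 16 and 0.102 without both mice 23 and 24. In M-p110βKO Ogdh was 734, 807, 691 and 817 CPM fed and 856, 983, 907 and 873 CPM fasted, which did not overlap, with a log2 difference of 0.25 (adjusted p = 0.0639). In the p110α line Ogdh was called with fasting in neither genotype: 1073, 1111, 1182 and 1220 CPM in fed and 1193, 1229, 1174 and 1154 CPM in fasted controls, overlapping, and 1040, 929.8, 1221 and 1288 and 1415, 1267 and 1381 CPM in fed and fasted M-p110αKO, with a log2 difference of 0.28 (adjusted p = 0.0787) for fasting in the knockout. The fasting responses of the controls of the lines differed by -0.40 ± 0.15 (p110α minus p110β, SE, adjusted p = 0.157).

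Dlst, the E2 enzyme, transfers the succinyl group to coenzyme A. It measured 332, 308, 344 and 344 CPM in fasted p110α-line controls and 412, 403 and 512 CPM in fasted M-p110αKO. The groups did not overlap, but the log2 difference of 0.42 ± 0.13 (SE, edgeR adjusted p = 0.0634) fell short of the threshold. Dlst was called in this comparison under 4 alternatives: with GC content and exon length removed (adjusted p = 0.0318), with the DESeq2 Wald test (0.0304), with upper-quartile factors (0.0477) and when only the groups compared were fitted (0.0383). Ogdhl, a paralog of Ogdh with low expression, had group means of 2.55 ± 0.62 to 4.59 ± 1.48 CPM and was called in no comparison.

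Succinyl-CoA ligase pairs the shared α subunit Suclg1 with either the ATP-forming β subunit Sucla2 or the GTP-forming β subunit Suclg2. None of the 3 was called. Sucla2 was the steadiest member of the set in controls and measured 864, 809, 870.1 and 897 CPM in fasted p110α-line controls and 906, 901 and 1041 CPM in fasted M-p110αKO. All 3 knockout libraries lay above the controls, with a log2 difference of 0.15 (adjusted p = 0.391). With fasting in M-p110αKO, Suclg1 differed by -0.42 and Suclg2 by -0.31 (adjusted p = 0.0631 and 0.089), both with fasted libraries below all fed ones, while Sucla2 differed by 0.01 (adjusted p = 0.954).

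Succinate dehydrogenase, complex II of the respiratory chain, has the flavoprotein Sdha, the iron-sulphur subunit Sdhb and the membrane anchors Sdhc and Sdhd. Its subunits moved unequally: Sdhd fell with fasting in both genotypes of the p110α line and Sdhc in p110α-line controls and M-p110βKO, whereas Sdha rose in fasted M-p110αKO. Sdha (ENSMUSG00000021577, chr13:74322254-74350280, minus strand) measured 1245, 1239, 1298 and 1330 CPM in fasted p110α-line controls and 1868, 1526 and 1836 CPM in fasted M-p110αKO. All 3 fasted knockouts were above every library of the other 7 groups. Mouse 14, at 1526 CPM, was close to fasted M-p110βKO mouse 27, at 1520 CPM. The genotype difference in fasted mice was 0.455 ± 0.10 (SE, edgeR adjusted p = 0.0134). Without mouse 13, the highest, its adjusted p was 0.0573. Against fed M-p110αKO, at 1305, 1353, 1373 and 1483 CPM, Sdha rose in fasted M-p110αKO by 0.34 ± 0.10 (SE, edgeR adjusted p = 0.0221). This call was lost on leaving out mouse 5, 6, 13 or 15, with an adjusted p of up to 0.125. In controls of the p110α line fasting made a difference of 0.03 (adjusted p = 0.83), and the interaction of 0.31 did not pass the test (adjusted p = 0.294).

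In the p110β line the genotype difference of Sdha in fasted mice did not pass the test. Fasted controls measured 1255, 1411 and 1373 CPM and fasted M-p110βKO 1276, 1520, 1487 and 1278 CPM, overlapping groups with a log2 difference of 0.04 (adjusted p = 0.909) and a 95% interval of -0.19 to 0.28. The genotype difference in fasted mice was larger in the p110α line than in the p110β line by 0.40 ± 0.14 (SE), with an adjusted p of 0.0905 in edgeR, and DESeq2 called it. It was the 1 member DESeq2 called in a comparison of the lines.

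Sdhd (ENSMUSG00000000171, chr9:50596357-50603812, minus strand) measured 476, 444, 444 and 293 CPM in fed and 304, 255, 324 and 266 CPM in fasted p110α-line controls. The groups overlapped through fed mouse 4, the other 3 fed controls lying above all fasted ones, and Sdhd fell by 0.54 on the log2 scale (SE 0.14, adjusted p = 0.0083). In M-p110αKO it was 445, 518, 609 and 617 CPM fed and 353, 402 and 373 CPM fasted, without overlap, with a log2 change of -0.54 ± 0.15 (SE, edgeR adjusted p = 0.0186). Both calls were lost when counts were corrected for GC content and exon length, at -0.41 (adjusted p = 0.0581) in controls and -0.39 (adjusted p = 0.106) in M-p110αKO, and the second also without mouse 13 (adjusted p = 0.0694). The knockout stood above its controls in fasted mice without overlap, but neither genotype difference passed the test, at 0.40 (adjusted p = 0.249) fed and 0.40 (adjusted p = 0.122) fasted. With edgeR the first was called with no filter beyond 1 read (adjusted p = 0.0499) and the second when only the groups compared were fitted (0.0459). In the p110β line Sdhd was 399, 358 and 423 CPM in fed and 378, 350.3 and 350.5 CPM in fasted controls, and 402, 393, 413 and 445 and 272, 365, 439 and 270.4 CPM in fed and fasted M-p110βKO, all groups overlapping, with fasting differences of -0.12 (adjusted p = 0.603) and -0.30 (adjusted p = 0.083).

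Sdhc (ENSMUSG00000058076, chr1:171127165-171150603, minus strand), the other anchor, measured 194, 234, 202 and 247 CPM in fed and 155, 128, 142 and 203 CPM in fasted p110α-line controls. The groups overlapped through fasted mouse 12, which was above fed mice 1 and 3, and the log2 change was -0.49 ± 0.13 (SE, edgeR adjusted p = 0.0106). In M-p110βKO it was 238, 201, 242 and 242 CPM fed and 189, 171, 191 and 167 CPM fasted, without overlap, with a log2 change of -0.36 ± 0.10 (SE, edgeR adjusted p = 0.00701). Both calls held on leaving out any single library. The other fasting differences of Sdhc were -0.35 (adjusted p = 0.0962) in M-p110αKO and -0.26 (adjusted p = 0.1) in p110β-line controls.

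Muscle fibre markers moved differently in the comparisons in which an anchor fell. In fasted against fed p110α-line controls 5 of 6 skeletal muscle markers and 3 of 8 markers of slow or oxidative fibres fell and 0 rose. Their median log2 changes were -0.51 and -1.15. In M-p110βKO 4 of 6 skeletal muscle markers fell and 0 rose, with a median of -0.40. Of 7 slow or oxidative markers tested there, 1 rose and 0 fell, with a median of 0.897. In M-p110αKO, where Sdhd fell, 1 of 6 skeletal muscle markers fell and 0 rose, and their median was -0.0002. Of 8 slow or oxidative markers there, 1 rose and 0 fell, with a median of -0.272. In p110β-line controls, where no anchor was called, 2 of 6 skeletal muscle markers fell and 0 rose (median -0.303). Of 7 slow or oxidative markers in those controls, 4 rose and 0 fell (median 0.971). The part of these genes in the succinate dehydrogenase results was not tested.

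Sdhb was called in no comparison. It measured 351, 431, 377 and 358 CPM in fed and 289, 254, 271 and 389 CPM in fasted p110α-line controls, overlapping at fasted mouse 12, with a log2 difference of -0.34 (adjusted p = 0.0864), and 447, 596, 378 and 447 and 329.5, 395 and 331 CPM in fed and fasted M-p110αKO. The ratio of Sdhd to Sdha per kb described the unequal movement within complex II. It was 1.11 ± 0.194 in fed and 0.753 ± 0.0861 in fasted p110α-line controls (SD, n = 4 each), 1.33 ± 0.148 and 0.732 ± 0.132 in fed and fasted M-p110αKO (n = 4 and 3), 1.09 ± 0.0861 and 0.899 ± 0.0971 in p110β-line controls (n = 3 each), and 1.16 ± 0.126 and 0.804 ± 0.131 in M-p110βKO (n = 4 each). The mean was lower in the fasted group of each pair. These ratios were not tested, and of the comparisons behind them only those named above were called.

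**Figure D4:**
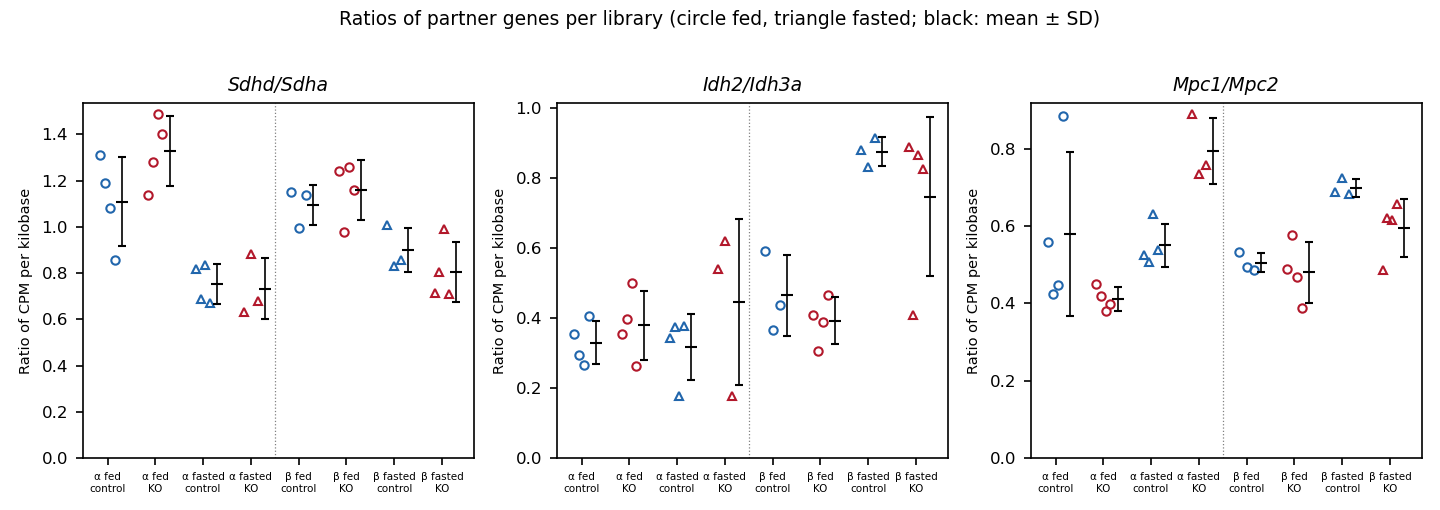
Ratios of 2 transcripts per kb in each library, by group, for Sdhd over Sdha, Idh2 over Idh3a and Mpc1 over Mpc2. Sdhd over Sdha averages 1.11 and 1.33 in the fed and 0.753 and 0.732 in the fasted groups of the p110α line, and Idh2 over Idh3a averages 0.876 in fasted p110β-line controls.

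Fumarase, Fh1, hydrates fumarate to malate, which Mdh2 in the mitochondrion and Mdh1 in the cytosol oxidise to oxaloacetate. None of the 3 was called. Fh1 group means lay between 169 ± 11 CPM (SD, n = 3) in fasted M-p110αKO and 206 ± 19.4 CPM (n = 4) in fasted M-p110βKO. Mdh2 was lower after fasting in each pair of groups, at -0.17, -0.27, -0.28 and -0.25 on the log2 scale in p110α-line controls, M-p110αKO, p110β-line controls and M-p110βKO, with adjusted p of 0.0747 to 0.205. Mdh1, the most abundant of this step, measured 697, 599.7, 782 and 826 CPM in fasted p110α-line controls and 823, 788 and 1070 CPM in fasted M-p110αKO, overlapping groups with a log2 difference of 0.31 (adjusted p = 0.221).

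Among the anaplerotic enzymes Me3, the mitochondrial NADP-dependent malic enzyme, fell with fasting in 3 of the 4 comparisons. Antisense exons of A230065N10Rik cover 3.89% of its exon bases. Me3 (ENSMUSG00000030621, chr7:89632392-89854359, plus strand) measured 126, 127, 117 and 139 CPM in fed and 106, 93.7, 99.1 and 89.8 CPM in fasted p110α-line controls, without overlap, with a log2 change of -0.40 ± 0.11 (SE, edgeR adjusted p = 0.0115). In M-p110αKO it was 122, 164, 147 and 127 CPM fed and 124, 109 and 93.5 CPM fasted, overlapping at mice 13 and 5, with a change of -0.36 ± 0.12 (SE, edgeR adjusted p = 0.0417). In p110β-line controls it was 139, 97 and 123 CPM fed and 71.3, 82.6 and 101 CPM fasted, overlapping at mice 17 and 25, with a change of -0.49 ± 0.15 (SE, edgeR adjusted p = 0.0194). The first call held on leaving out any single library, the second was lost in 7 of 15 such fits and also when only the groups compared were fitted (adjusted p = 0.099), and the third was lost without mouse 16, 18, 23 or 24. Without both 23 and 24 the change in p110β-line controls was -0.24 (adjusted p = 0.453). In M-p110βKO the difference was -0.23 (adjusted p = 0.166).

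Pcx, pyruvate carboxylase, makes oxaloacetate from pyruvate. It measured 100, 85.3, 87.7 and 79 CPM in fed p110α-line controls and 74.7, 69, 72 and 41.8 CPM in fed M-p110αKO. The knockout libraries were all lower, but the log2 difference of -0.455 ± 0.15 (SE, edgeR adjusted p = 0.213) did not pass the test. In fasted M-p110αKO the difference was 0.16 (adjusted p = 0.601), and the interaction was 0.615 (adjusted p = 0.193). Me1, the cytosolic malic enzyme, measured 486, 418, 404 and 345 CPM in fed controls and 322, 333, 347 and 186 CPM in fed M-p110αKO, and 361, 360.4, 392 and 329.6 and 280.2, 294 and 207 CPM in the fasted groups. The fasted groups did not overlap, and the log2 differences were -0.48 (adjusted p = 0.229) fed and -0.46 (adjusted p = 0.127) fasted. With no filter beyond 1 read, edgeR called Me1 fed (adjusted p = 0.00854) and fasted (0.00571) and Pcx fed (0.027). In M-p110βKO against controls Me1 differed by 0.04 fed and -0.01 fasted. Pcx and Me1 are also abundant in adipocytes, whose 7 markers summed to 89.98 to 125.2 CPM in fed controls and 116.4 to 140.4 CPM in fed M-p110αKO, and to 154.4 to 173.6 and 141.9 to 206.8 CPM in the fasted groups of that line. Fabp4 made up most of these sums. Of 6 adipocyte markers tested between genotypes 0 rose and 0 fell in either state, with a median log2 difference of 0.487 fed and -0.648 fasted. The part of fat in these values was not tested. Pck2 and Me2 were low, with group means of 4.04 ± 1.28 to 9.06 ± 1.51 CPM and 1.99 ± 0.203 to 3.51 ± 0.163 CPM. Me2 differed with fasting in M-p110αKO by -0.71 (adjusted p = 0.0546).

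The difference between the fasting responses of knockout and control was called for 0 of 32 genes in the p110α line (0.483% of all genes) and 0 of 32 in the p110β line (0.106%), with edgeR and likewise with DESeq2 and limma-voom. At an unadjusted p under 0.05 there were 2 above and 2 below 0 in the p110α line and 3 above 0 in the p110β line. A gene called in knockouts and not in controls is therefore not shown to respond differently in them. For Mpc2, called in M-p110αKO and in p110β-line controls, the interaction was -0.38 (adjusted p = 0.267) in the p110α line and 0.31 (adjusted p = 0.39) in the p110β line. Between the lines, edgeR called 0 of 32 genes for the fasting response of controls (1.56% of all genes), 0 of 32 for the knockout difference in fed mice (0.133%) and 0 of 32 for that in fasted mice (4.88%). Limma-voom called 0 in all 3, DESeq2 0 in the first and second and Sdha in the last. Unadjusted p in edgeR was under 0.05 for 4, 8 and 6 members. The shares of all genes above are for adjusted p and cannot be set against these counts.

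Promoter sequence of the members was taken from RefSeq on GRCm38.p6, as windows of equal length that begin upstream of an annotated start and end just after it. Windows were found for 29 of the 32 genes, all but Idh3a, Sdhc and Me2. The windows of Sdhd and Idh3g, which fell with fasting in p110α-line controls, and of Ogdh, which rose with fasting in p110β-line controls, are shown because they carry letters searched for here and belong to called members. All are written 5′ to 3′ on the strand of the gene. Capitals mark the ETS factor core CCGGAAG or its reverse complement CTTCCGG, and the estrogen-related receptor (ERR) core AAGGTCA or its reverse complement TGACCTT. The Sdhd window is chr9:50603800-50604099 (minus strand), the Idh3g window chrX:73786848-73787147 (minus strand) and the Ogdh window, 1 of 6 start windows of that gene, chr11:6291920-6292219 (plus strand).
Sdhd: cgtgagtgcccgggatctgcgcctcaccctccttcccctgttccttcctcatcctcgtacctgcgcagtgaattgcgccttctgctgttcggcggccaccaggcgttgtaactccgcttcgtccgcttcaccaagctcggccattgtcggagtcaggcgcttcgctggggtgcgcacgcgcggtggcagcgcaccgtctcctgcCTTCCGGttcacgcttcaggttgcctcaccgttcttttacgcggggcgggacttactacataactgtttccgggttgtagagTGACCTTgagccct
Idh3g: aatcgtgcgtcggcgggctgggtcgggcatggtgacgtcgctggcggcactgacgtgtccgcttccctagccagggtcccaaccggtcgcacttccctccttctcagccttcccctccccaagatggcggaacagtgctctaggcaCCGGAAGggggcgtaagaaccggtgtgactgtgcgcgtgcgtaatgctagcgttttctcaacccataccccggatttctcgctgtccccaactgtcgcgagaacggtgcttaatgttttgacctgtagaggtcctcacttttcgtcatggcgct
Ogdh: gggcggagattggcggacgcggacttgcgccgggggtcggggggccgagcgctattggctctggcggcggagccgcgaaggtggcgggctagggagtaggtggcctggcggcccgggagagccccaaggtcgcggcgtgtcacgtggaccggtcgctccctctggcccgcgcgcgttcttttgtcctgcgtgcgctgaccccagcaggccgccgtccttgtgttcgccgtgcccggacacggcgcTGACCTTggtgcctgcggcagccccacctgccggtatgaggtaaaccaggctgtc

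The 5 motifs were searched on both strands, with a gene counted where any of its windows held the letters. The ETS core was in 6 of 29 members (20.7%: Dlst, Idh3b, Idh3g, Mpc1, Sdhb and Sdhd) and in 8.86% of 32851 windows of all genes. The ERR core was in Ogdh and Sdhd (6.9% of members, 4.72% of all windows), the NRF1 motif GCGCATGC in Ogdh and Sdhb (6.9%, 2.71%) and the cAMP response element TGACGTCA in Mdh2 and Ogdh (6.9%, 1.79%). The FoxO motif GTAAACA was in 0 of 29 members (3.65% of all windows). Members with several windows had more chances of a match than a single window. A match of letters describes the window and does not show binding.

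Genes next to the cycle were described from lists of neighbouring functions. Of 7 genes for lipoylation of the E2 enzymes and assembly of succinate dehydrogenase, Sdhaf3, an assembly factor for the iron-sulphur subunit, fell with fasting in p110α-line controls by a log2 change of -0.465 (adjusted p = 0.00415), in M-p110αKO by -0.52 (adjusted p = 0.0064) and in p110β-line controls by -0.47 (adjusted p = 0.0496). Sdhaf4, which helps insert the flavoprotein, fell in p110β-line controls by -0.69 (adjusted p = 0.00674). None of the 7 rose. Lipt2, the octanoyl transferase of lipoate synthesis, differed between the lines in the knockout effect in fasted mice by -0.93 (adjusted p = 0.0385). That comparison includes mice 23 and 24 and is not given without them. Of 5 mitochondrial carriers of cycle intermediates tested, Slc25a22, a glutamate carrier, rose in all 4 fasting comparisons, by 0.70 and 0.72 in controls and knockouts of the p110α line and by 1.15 and 1.83 in those of the p110β line (adjusted p = 0.0276, 0.0395, 0.00205 and 4.71e-6).

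Of the enzymes that feed or drain the cycle 15 were tested in each line, and by count more were called with fasting in the p110β line. Of all genes 26.9% and 37.9% were called with fasting in p110β-line controls and knockouts, and 30.1% and 21.5% in those of the p110α line. For the difference between the lines in the fasting response of controls, 0 of 16 were called. Whether the lines differed was not tested over the list. In p110β-line controls 6 rose and 0 fell. Among them, Nnt, a mitochondrial transhydrogenase gene, rose by 1.14 (adjusted p = 0.00129) and Bdh1, of ketone body oxidation, by 0.93 (adjusted p = 0.0473). Got1, an aspartate aminotransferase, rose by 0.44 (adjusted p = 0.0453), Mut, methylmalonyl-CoA mutase, by 0.385 (adjusted p = 0.0075) and Glud1, glutamate dehydrogenase, by 0.31 (adjusted p = 0.0422). Counts over all exons do not show whether Nnt transcripts were intact in these mice. With fasting in p110β-line controls 4 of 4 adipocyte markers tested rose, with a median log2 change of 5.3, and 4 of 7 markers of slow or oxidative fibres rose. The part of these markers in the values of this list was not tested. Without mice 23 and 24, 3 of the 15 rose and 1 fell (16.2% of all genes called): Nnt (1.02, adjusted p = 0.0353), Bdh1 (1.35, adjusted p = 0.0408) and Got1 (0.68, adjusted p = 0.0331) rose and Ldha fell by 0.71 (adjusted p = 0.0352), while Mut and Glud1 had adjusted p of 0.0505 and 0.378. Of the other genes given for this comparison, Pdk4, Pdp2 and Slc25a22 rose and Pdp1 fell also without these mice, with adjusted p of 3.35e-6, 0.0227, 0.00415 and 0.00193, and Sdhaf3 and Sdhaf4 were no longer called (adjusted p = 0.16 and 0.0677). In M-p110βKO 6 rose, among them Ldhb, a lactate dehydrogenase subunit, by 1.00 (adjusted p = 0.00692) and Nnt by 1.15 (adjusted p = 0.000236), and Ldha, the muscle subunit, fell by 0.45 (adjusted p = 0.0163). In p110α-line controls Nnt rose by 0.53 (adjusted p = 0.0461) and Ldha fell by 0.54 (adjusted p = 0.00133), and in M-p110αKO edgeR called 0 of 15, although unadjusted p was under 0.05 for Acly and Glud1, both higher, and Ldha, which was lower. Gpt, alanine aminotransferase, was higher in fasted M-p110αKO than in their controls by 0.66 (adjusted p = 0.0267), the only call of this list between genotypes in the 4 comparisons.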

How the data were processed

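RNA of 29 TA muscles was sequenced after preparation with a NEBNext mRNA kit. The authors aligned reads to GRCm38 with STAR and counted them per gene with featureCounts of Subread, and deposited raw counts for 48023 genes. Tool versions, strand setting and the treatment of reads with several matches were not given in sources used here. Columns were matched to mice by their labels, with 0 sample columns unused, and libraries within a group were checked for duplication: 39 pairs had a chi-square per degree of freedom of 3.92 to 31. Nothing further says how the mice were paired or housed, so p-values measure the spread between these mice.

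Symbols, positions and exon lengths came from GENCODE M21, which covers 47310 gene IDs, and 713 IDs without an entry were kept under their IDs. Each line was fitted alone, with 1 coefficient per group, in edgeR 4.0.16 under R 4.3.3: filterByExpr (min.count 10, min.total.count 15), TMM factors and the quasi-likelihood F test, with Benjamini-Hochberg adjustment over the 12433 (p110α) or 12249 (p110β) genes tested and a threshold of 0.05. Differences between the lines used all 29 libraries and 12760 genes. Standard errors (SE) are the size of the fold change on the log2 scale over the square root of F, and intervals are 95%. CPM levels were scaled with TMM factors over all 29 libraries and, between genes, divided by summed exon length. Apart from Dixon's test for a library that stands apart in a group of 4, single values were not tested. The edgeR steps were first tested on simulated data with known changes, for fasting in controls of the p110α and p110β lines. Each simulation held only the fed and fasted controls of a line. For each fold size 63 to 67 genes were changed, of 11605 and 11587, far fewer than were called in the data. The recovery is therefore not that of the fits reported here. The simulated fits recovered 32.8% and 20.9% of 1.5-fold changes, 74.6% and 73.4% of 2-fold changes and 98.4% and 98.5% of 4-fold changes. Of the genes called, 13 of 146 and 13 of 138 were false, a larger share than the threshold of 0.05.

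The members and lists were chosen with earlier results of these data known. Full values are given for members called in any comparison and for the most abundant member of each step, other members by range or count, and up to 4 genes of each neighbouring list by lowest adjusted p, apart from genes that were added to complete a count and 1 gene of the lists that is not reported here. Alternatives were size factors or the Wald test of DESeq2 1.42.0, scaling to the upper quartile, keeping every gene with at least 1 read, limma-voom (limma 3.58.1), fits to the groups compared alone, removal of GC content and exon length (splines with 5 degrees of freedom, available for 99.7% of genes) and leaving out each library. Leaving out fasted p110β-line controls 23 and 24 together was added after seeing the data. For the neighbouring lists it is given only for fasting in p110β-line controls.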

Additional observations from a re-analysis of the deposited data

Results flagged for a closer look

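In 160 groups of 4 libraries, 1 for each member and group of that size, 12 held a library whose gap to the nearest other exceeded the 95% limit of Dixon's test. Chance gives about 1 in 20 such groups.

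Mouse 28, a fasted M-p110βKO, was high in 4 genes of the cycle: Mdh1 at 1022 CPM against 687.6 to 712 CPM in the other 3 mice, Mdh2 at 709.8 against 568.3 to 577.5 CPM, Idh3b at 222.7 against 180.9 to 185.2 CPM, and Suclg1 at 184.7 against 144 to 149.7 CPM. Mouse 20, a fed M-p110βKO, was low in Idh2 at 162.7 CPM against 194 to 197.1 CPM and in Sdhc at 201.4 against 237.6 to 242.1 CPM, and high in Aco1 at 25.93 against 20.86 to 21.63 CPM. In the same group, Dlat was 152.2 CPM in mouse 19 against 175.7 to 179.7 CPM, and Mdh2 was 838.6 CPM in mouse 22 against 683.7 to 685.4 CPM.

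In the p110α line, Mpc1 was 59.72 CPM in fed control mouse 4 against 23.83 to 29.27 CPM in the other 3. Pdha1 was 542.4 CPM in fed control mouse 1 against 642.3 to 648.6 CPM. Me1 was 185.6 CPM in fed M-p110αKO mouse 8 against 321.5 to 346.6 CPM. None of these members was called in a comparison that these libraries enter, other than Sdhc and Idh2 with fasting in M-p110βKO.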

How the results depend on the processing

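Counts of called members, out of 32, moved with the processing, and each called member kept its direction under the alternatives run. The share of all genes called in each of these fits is not given beside the counts. A change in a count is therefore not a result about the members. The median over the members turned sign in the interaction of the p110α line, from -0.014 to 0.019 with upper-quartile factors and 0.078 with GC content and exon length removed. With upper-quartile factors there were 2 in the knockout comparison of fasted p110α mice, 8 with fasting in p110α-line controls, 8 in p110β-line controls and 7 in M-p110βKO. With no filter beyond 1 read the fed M-p110αKO comparison had 3 and the fasted one 3, with 9 and 8 with fasting in p110α-line controls and knockouts, 1 in the interaction of the p110α line (Dld) and 1 in that of the p110β line (Idh1), and, between the lines, 1 for fasting in controls (Idh2) and 1 for the knockout in fasted mice (Dld). The DESeq2 Wald test called 2 in fasted M-p110αKO, 8 with fasting in M-p110αKO and 1 (Sdha) between the lines. Removal of GC content and exon length gave 2 in fasted M-p110αKO, 8 with fasting in p110α-line controls and 7 in M-p110βKO, and the fit to the groups compared gave 3 in fasted M-p110αKO. Without both mice 23 and 24, 0 were called with fasting in p110β-line controls, where the lone library left was assumed to vary like the other groups. The cause was not tested.

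On leaving out each library in turn, the count ran from 0 to 3 in fasted M-p110αKO, 3 to 6 and 2 to 6 with fasting in p110α-line controls and knockouts, and 2 to 5 and 4 to 6 in those of the p110β line. The 8 other comparisons stayed at 0 in these fits. Besides the losses given beside each gene, Sdha with fasting in M-p110αKO was lost with no filter beyond 1 read (0.29, adjusted p = 0.166) and in the fit to the groups compared (0.34, adjusted p = 0.0744).

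No paired analysis was possible because the mice are numbered 1 to 29 and no number is shared between groups. With 3 or 4 libraries a group, small differences could not be told from the spread between mice, and a member that was not called is not shown to be unchanged.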
